A study of Mus musculus with 6 samples.

Results

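The genes described here are 35 markers of neuroblasts and neurons, listed by name, out of 22180 genes with an array probe set of their own. The list was made with earlier results of these data known. All 35 were measured, each by 1 probe set that pairs with that gene only. RNA came from floating neurosphere cultures of CD1 mice, an outbred stock, grown for 7 days with EGF and FGF2 from the subventricular zone of 2-month-old offspring. In the 3 MG cultures, the mother had received 2 intraperitoneal injections a day of MG at 0.5 mg/kg from gestational day 12 to delivery, and in the 3 PBS cultures the mother had received PBS on that schedule. MG is read as methylglyoxal, a reactive by-product of glycolysis, from the series title, where it stands beside its detoxifying enzyme Glo1, diabetes of the mother and stem cell pools of the offspring. The labels call the cultures primary in some fields and secondary in another, give no sex, and do not say whether animals of a group shared a mother. Litter and treatment therefore cannot be told apart, and the p-values set the groups against the spread among 3 cultures each.

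In the adult subventricular zone, stem cells give rise to dividing progenitors and then to neuroblasts, which migrate to the olfactory bulb and become mostly GABAergic interneurons. Migrating neuroblasts carry doublecortin and other cytoskeletal proteins, and DLX and SP family factors direct the interneuron fate. A smaller lineage from the dorsal wall uses the glutamatergic series of Neurog2, Eomes, Neurod1 and Tbr1. EGF and FGF2 keep neurospheres dividing and largely undifferentiated. Several listed genes, among them Ncam1, Cd24a, Map2 and Meis2, are not restricted to neurons.

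Neurospheres of both groups had most general neuronal genes and 4 of 6 GABAergic members above a reference level. The other 2 GABAergic members, the interneuron markers Dlx6 and Dlx6os1, stayed below it on every array, as did 3 of 5 glutamatergic markers. The reference level was 5.02 on the log2 scale of the deposited values, the level under which 95% of 1390 receptor genes of smell and pheromones had their mean. In both groups the mean lay above it for 28 members, or 80.0%, against 61.8% of all genes tested, and 26 members were above it on all 6 arrays (74.3%, against 57.9% of all genes). The other 7 members, namely Dlx6, Dlx6os1, Prokr2, Tbr1, Eomes, Neurod1 and Elavl4, were below it on all 6. With 6.05 as the level, under which 99% of the receptor genes lay, 21 members remained above, and those that dropped out were Dcx, Stmn2, Stmn4, Sp9, Celf4, Neurog2 and Neurod2. Shares of all genes were counted at 5.02 only, so counts at other levels are not set against a background. An array value depends on the probes, so the level was used only as a threshold, and values of different genes were not ranked.

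**Figure D1:**
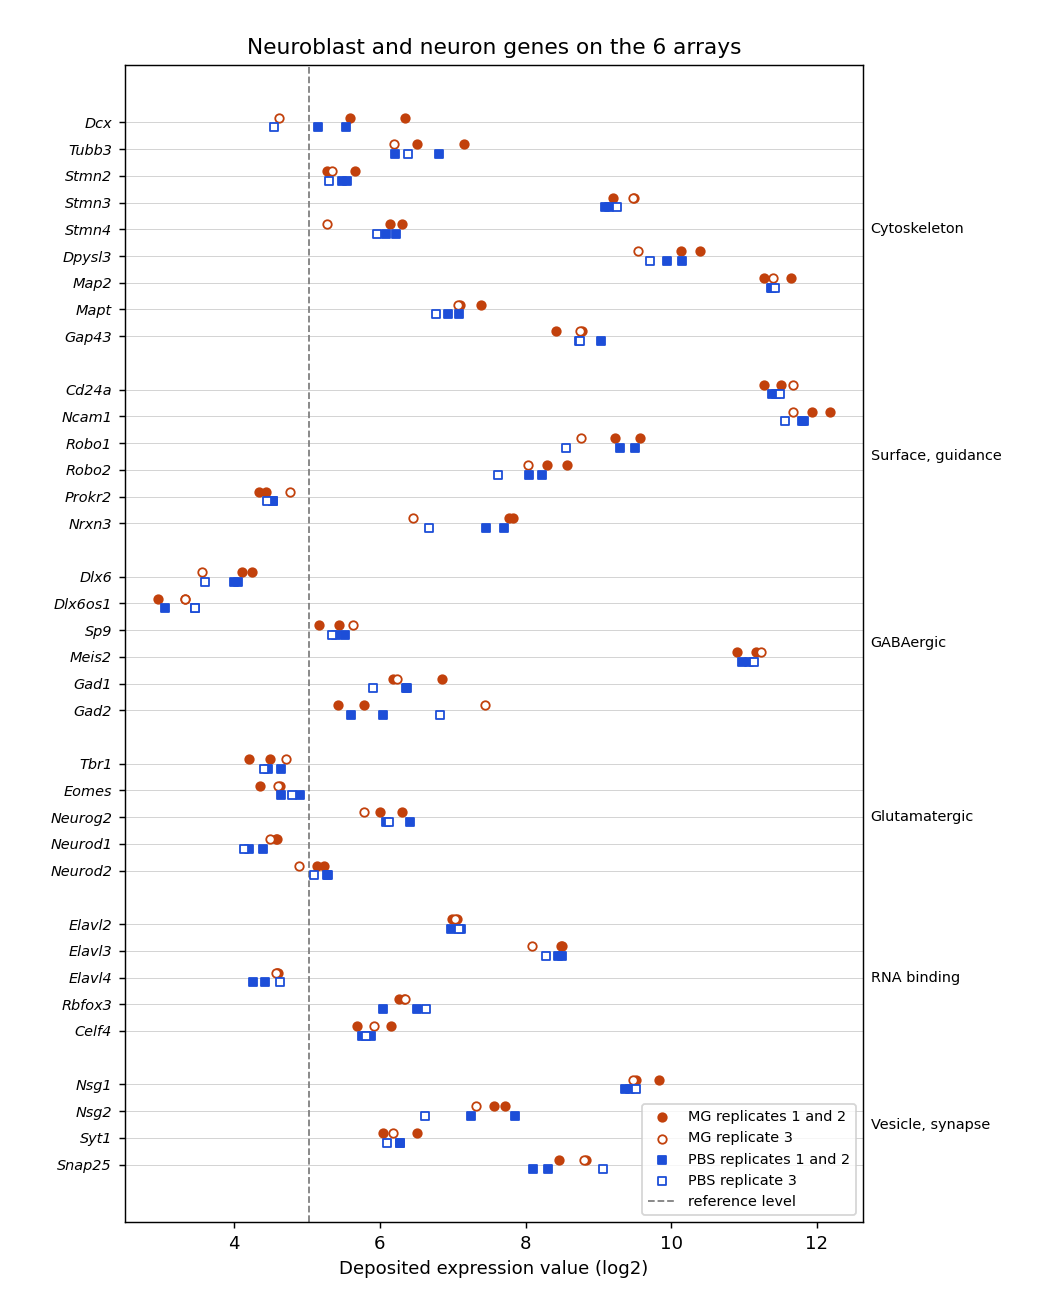
Deposited log2 expression value (x axis) of the 35 neuroblast and neuron genes (rows, by role) on the 3 MG arrays (circles, upper in each row) and the 3 PBS arrays (squares), with replicate 3 of each group drawn open and the reference level of 5.02 dashed. The 7 genes named as below the level lie wholly left of it, and the values of MG and PBS cultures overlap in all rows but Neurod1 and Eomes.

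Cytoskeletal genes of migrating neuroblasts and growing neurites were above the level in both groups in 9 of 9 cases. Dcx, which encodes the microtubule-associated protein doublecortin of migrating neuroblasts, had log2 values of 6.34, 5.59 and 4.62 in MG replicates 1 to 3, against 5.15, 5.54 and 4.55 in PBS replicates 1 to 3. Its groups overlapped, and the arrays numbered 3 were the only ones below the reference level, so that Dcx was above it on 4 of 6. Tubb3, the neuronal beta-tubulin, stood at 7.15, 6.51 and 6.19 in MG and 6.21, 6.82 and 6.38 in PBS cultures, with MG replicate 1 the highest. Map2, a dendritic microtubule-associated protein gene, measured 11.27, 11.64 and 11.39 in MG and 11.38, 11.38 and 11.42 in PBS, and Mapt, which encodes tau, 7.39, 7.10 and 7.07 in MG and 6.93, 7.09 and 6.77 in PBS. The 3 PBS values of Map2 lay within the range of the MG values.

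The stathmins destabilise microtubules, and Stmn2, Stmn3 and Stmn4 are their neuronal members. Stmn2 was close to the reference level on every array, at 5.66, 5.28 and 5.35 in MG and 5.55, 5.48 and 5.31 in PBS cultures. Stmn3 had values of 9.49, 9.20 and 9.48 in MG and 9.09, 9.14 and 9.25 in PBS, with only MG replicate 2 inside the PBS range. For Stmn4 the values were 6.30, 6.14 and 5.28 in MG and 6.23, 6.09 and 5.96 in PBS, and MG replicate 3 stood apart below the rest. The collapsin response mediator gene Dpysl3 measured 10.39, 10.13 and 9.55 in MG and 9.94, 10.15 and 9.71 in PBS, replicate 3 being the lowest of either group. Gap43, a growth cone protein gene, had 8.42, 8.78 and 8.74 in MG and 8.73, 9.03 and 8.74 in PBS.

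Genes of the cell surface and of guidance were above the level in 5 of 6 cases. Ncam1, the neural cell adhesion molecule whose polysialylated form marks neuroblasts, stood at 11.93, 12.17 and 11.67 in MG and 11.79, 11.83 and 11.56 in PBS cultures. Cd24a, a surface glycoprotein gene of neuroblasts and ependymal cells, measured 11.51, 11.28 and 11.68 in MG and 11.38, 11.44 and 11.49 in PBS. Both groups overlapped in these genes, and the spread among the PBS cultures of Cd24a was small (SD 0.053, n = 3). The Slit receptor gene Robo1 had 9.23, 9.58 and 8.76 in MG and 9.50, 9.29 and 8.55 in PBS, and Robo2 had 8.57, 8.30 and 8.03 in MG and 8.05, 8.22 and 7.62 in PBS. Replicate 3 was the lowest of its group for both receptors. Nrxn3, a presynaptic adhesion gene, split the arrays more widely, with 7.78, 7.83 and 6.45 in MG and 7.70, 7.45 and 6.68 in PBS. Prokr2, the prokineticin receptor that guides neuroblasts to the olfactory bulb, ranged from 4.34 to 4.77 over the 6 arrays (median 4.49) and was below the level on all of them.

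Among GABAergic members, 4 of 6 were above the level, and the 2 that encode GABA-synthesising enzymes did not vary alike. Gad2, which encodes GAD65, had values of 5.43, 5.78 and 7.45 in MG cultures and 6.05, 5.60 and 6.83 in PBS cultures, so replicate 3 was far above the other 2 in either group. Gad1, which encodes GAD67, stood at 6.18, 6.86 and 6.24 in MG and 6.37, 6.35 and 5.91 in PBS, without that split. Sp9, a zinc finger factor of the interneuron lineage, measured 5.17, 5.44 and 5.63 in MG and 5.40, 5.53 and 5.34 in PBS, not far above the reference level. Meis2, a homeodomain factor of olfactory bulb neuroblasts, had 10.91, 11.17 and 11.23 in MG and 11.07, 10.96 and 11.14 in PBS. Dlx6, a distal-less homeobox gene, ranged from 3.56 to 4.24 (median 4.02), and its long noncoding neighbour Dlx6os1 from 2.96 to 3.47 (median 3.33). Dlx6 and Dlx6os1 overlap in the genome, and each is reported from a probe set annotated to it alone.

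Gad2 and Dcx had the widest spread of all members, in opposite directions on the arrays numbered 3, and the 250 bases before a RefSeq transcript start of each (GRCm38.p6) are shown for that reason. Capitals mark matches to the E-box motifs CAGCTG or CAGATG, which proneural bHLH factors can bind, or to TAATTA, the core that many homeodomain proteins recognise, on either strand. For Gad2 the region is chr2:22622077-22622326 on the plus strand, and for Dcx it is chrX:143933220-143933469 on the minus strand, the more upstream of 2 starts in the table.
Gad2: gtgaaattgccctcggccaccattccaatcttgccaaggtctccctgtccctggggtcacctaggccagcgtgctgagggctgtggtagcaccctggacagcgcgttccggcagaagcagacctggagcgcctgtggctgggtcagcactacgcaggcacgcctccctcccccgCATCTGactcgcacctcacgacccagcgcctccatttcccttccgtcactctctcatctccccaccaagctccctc
Dcx: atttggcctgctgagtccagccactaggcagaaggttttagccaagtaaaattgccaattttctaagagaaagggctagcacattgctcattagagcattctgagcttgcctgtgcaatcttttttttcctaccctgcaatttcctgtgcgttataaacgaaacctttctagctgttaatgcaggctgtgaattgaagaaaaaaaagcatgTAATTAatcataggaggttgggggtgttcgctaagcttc
The Gad2 stretch held 1 E-box, CAGATG read on the opposite strand, whose first base lies 76 bases before the start, and no TAATTA. The Dcx stretch held 1 TAATTA, from 39 bases before the start, and no such E-box. Promoters of 24 of the 35 members were in the table, taking the most upstream start of each gene. CAGCTG was in 2 of the 24 and in 12.7% of 27025 promoters, CAGATG in 4 and 14.5%, and TAATTA in 3 and 4.91%. A match describes letters only.

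The glutamatergic series was the group with the fewest members above the level, 2 of 5. Neurog2, the proneural factor at its head, measured 6.30, 6.00 and 5.78 in MG and 6.42, 6.09 and 6.12 in PBS cultures, above the level on every array. Neurod2, a later bHLH factor, had 5.13, 5.23 and 4.88 in MG and 5.27, 5.29 and 5.10 in PBS, and MG replicate 3 was below the level. Eomes, which encodes TBR2 of intermediate progenitors, had 4.36, 4.63 and 4.60 in MG and 4.90, 4.65 and 4.79 in PBS, all below the level, with every MG value under every PBS value. Neurod1, a bHLH factor of newborn neurons, had 4.58, 4.57 and 4.49 in MG and 4.40, 4.21 and 4.14 in PBS, all below the level, with every MG value over every PBS value. Tbr1, the factor of postmitotic glutamatergic neurons, ranged from 4.20 to 4.72 (median 4.47).

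Neuronal RNA-binding genes were above the level in 4 of 5 cases. Elavl2, Elavl3 and Elavl4 encode Hu proteins that stabilise neuronal transcripts. Elavl2 measured 7.06, 6.99 and 7.04 in MG and 6.98, 7.12 and 7.08 in PBS cultures, the narrowest spread of the 35 members (pooled SD 0.059). Elavl3 stood at 8.50, 8.48 and 8.09 in MG and 8.50, 8.45 and 8.28 in PBS, replicate 3 being the lowest of either group. Elavl4 ranged from 4.26 to 4.63 (median 4.58), below the level on every array. Rbfox3, which encodes the nuclear antigen NeuN, had 6.26, 6.33 and 6.34 in MG and 6.05, 6.51 and 6.63 in PBS, so the MG values lay inside the PBS range. Celf4, a splicing and translation regulator, had 6.15, 5.68 and 5.92 in MG and 5.76, 5.88 and 5.81 in PBS.

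Vesicle and synapse genes were above the level in 4 of 4 cases. The endosomal trafficking genes Nsg1 and Nsg2 differed in spread. Nsg1 had 9.84, 9.51 and 9.47 in MG and 9.36, 9.44 and 9.52 in PBS cultures. Nsg2 had 7.72, 7.57 and 7.32 in MG and 7.25, 7.85 and 6.62 in PBS, where the PBS cultures spread over more than the whole MG range. Syt1, the calcium sensor of vesicle release, measured 6.04, 6.51 and 6.17 in MG and 6.28, 6.27 and 6.10 in PBS. Snap25, a SNARE of the presynaptic membrane, stood at 8.46, 8.83 and 8.81 in MG and 8.31, 8.11 and 9.06 in PBS, with PBS replicate 3 the highest of all.

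In several of these genes the arrays numbered 3 stood apart from the other 4. Over the 6 arrays Gad2 spanned 2.02 on the log2 scale, a 4.05-fold range, Dcx 1.80 (3.47-fold) and Nrxn3 1.38 (2.60-fold). Their pooled within-group SDs were 0.88, 0.71 and 0.67, against medians of 0.19 over the 35 members and 0.19 over all genes. Replicate 3 was the lowest of the group in both MG and PBS cultures for 13 members, or 37.1%, against 21.2% of all genes. The 13 were Dcx, Stmn4, Dpysl3, Mapt, Ncam1, Robo1, Robo2, Nrxn3, Dlx6, Neurod1, Neurod2, Elavl3 and Nsg2, with 4 of the 9 cytoskeletal and 4 of the 6 surface genes. Replicate 3 was the highest in both groups for 4 members, Gad2, Meis2, Cd24a and Rbfox3, or 11.4%, against 19.6% of all genes. Replicate 1 was the lowest in both groups for 3 members (9.79% of all genes) and the highest for 5 (13.2%), and replicate 2 the lowest for 0 (7.98%) and the highest for 3 (8.39%). No test was made of these counts.

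**Figure D2:**
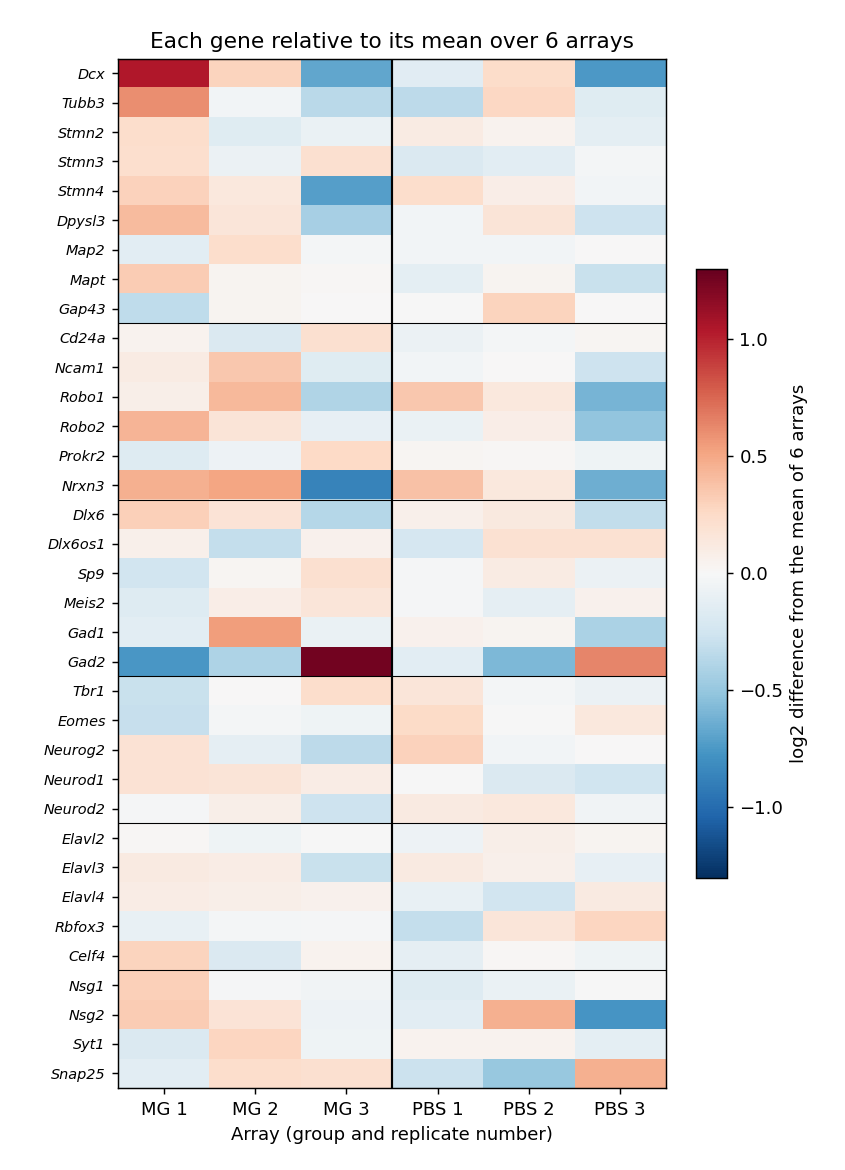
Each neuroblast and neuron gene (rows, in the order of the roles above) on the 3 MG arrays (left) and 3 PBS arrays (right), coloured by its log2 difference from its own mean over the 6 arrays. Dcx, Nrxn3, Robo1 and Dpysl3 are low in both columns numbered 3, where Gad2 is high.

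Averaged over its 9 genes, each relative to its own mean over the 6 arrays, the cytoskeletal group stood at 0.30, 0.07 and -0.23 in MG replicates 1 to 3 and at -0.06, 0.11 and -0.18 in PBS replicates 1 to 3. The surface and guidance group was at 0.16, 0.20 and -0.17 in MG and 0.09, 0.06 and -0.34 in PBS. The mean of the GABAergic group went the other way, at -0.16, 0.02 and 0.20 in MG and -0.04, -0.04 and 0.02 in PBS. It leaned on 1 gene, Gad2, with 7.45 in MG replicate 3 and 6.83 in PBS replicate 3. Replicate 3 was the highest in both groups for 2 of the 6 GABAergic genes, Gad2 and Meis2, and the lowest in both for 1, Dlx6. The glutamatergic, RNA-binding and vesicle groups stayed between -0.07 and 0.17 in MG and between -0.14 and 0.16 in PBS. Beside them, 20 S phase and mitosis genes were at -0.12, -0.22 and 0.43 in MG and -0.39, -0.11 and 0.40 in PBS, with replicate 3 the highest of both groups for 20 of 20. The 10 astrocyte markers were at 0.32, 0.22 and -0.35 in MG and 0.00, 0.19 and -0.38 in PBS, and the 10 oligodendrocyte markers at 0.24, 0.06 and -0.18 in MG and -0.05, 0.10 and -0.17 in PBS. The mean of the 6 endothelial markers was also lowest on the arrays numbered 3, at -0.0031, 0.10 and -0.17 in MG and 0.22, 0.14 and -0.29 in PBS. Of the 6, only 2, Kdr and Flt1, had replicate 3 as the lowest in both groups. The 15 neural stem markers, among them Nes, Sox2 and Vim, stayed between 0.01 and 0.07 in MG and between -0.14 and 0.07 in PBS. Whether the proliferation, glial or endothelial genes have a part in the spread of the neuronal genes was not tested. In cultures measured as a whole, fewer cells of a type and less RNA per cell cannot be told apart.

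**Figure D3:**
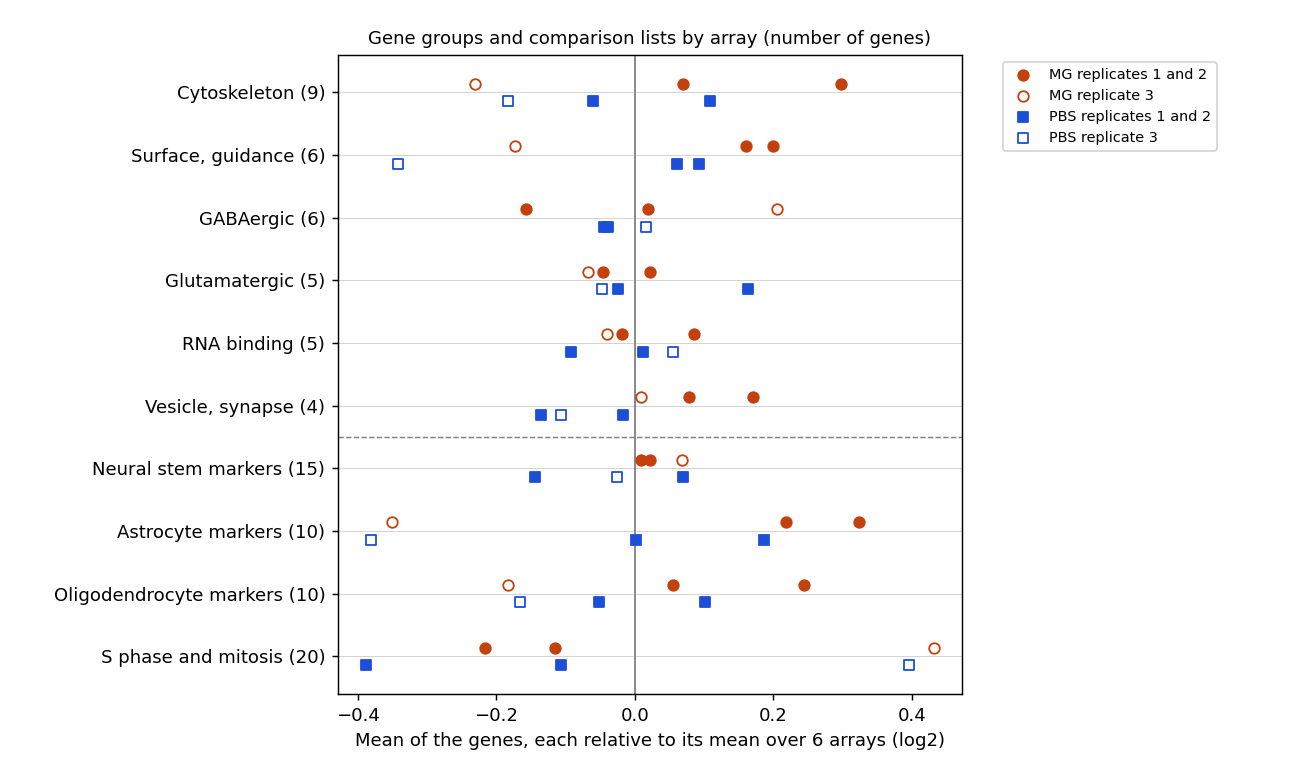
Mean of each group of neuroblast and neuron genes (above the dashed line) and of 4 comparison lists (below it) on each array, with every gene taken relative to its mean over the 6 arrays (x axis, log2). Circles are MG and squares PBS cultures, and the open symbols, replicate 3, lie left of the others for the cytoskeletal, surface, astrocyte and oligodendrocyte genes and right of them for S phase and mitosis.

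None of the 35 neuroblast and neuron genes passed the test of MG against PBS, and their log2 differences lay between -0.25 (Eomes) and 0.44 (Dcx). The series compared MG with PBS offspring to ask how the prenatal exposure altered neural stem cell cultures in adult life. In limma's moderated test with Benjamini-Hochberg adjustment over the 22180 genes, 0 members and 0 genes (0%) passed an adjusted p of 0.05. Counting unadjusted p under 0.05, there was 1 member, Neurod1, or 2.86%, against 712 genes, or 3.21%, of all. The count was 0 without MG replicate 1 and 3 without MG replicate 3. With all 6 arrays, Neurod1 had an unadjusted p under 0.05 and a higher mean in MG, as did 1.81% of all genes. With such a p and a lower mean there were 0 members, against 1.40% of all genes. The groups did not overlap in 2 members, or 5.71%, against 7.34% of all genes. These were Neurod1, higher in MG (4.03% of all genes), and Eomes, lower in MG (3.31%). The mean was higher in MG in 23 members (65.7%, against 53.8% of all genes) and lower in 12. The median log2 difference was 0.06 over the members and 0.01 over all genes. Without PBS replicate 3 it was -0.01 over the members, and 17 of them had the higher mean in MG.

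Neurod1 averaged 4.55 ± 0.05 in MG and 4.25 ± 0.13 in PBS cultures (SD, n = 3 each), 0.30 apart on the log2 scale (standard error 0.12). Its unadjusted p in limma was 0.0360 and its adjusted p 0.9998, and since both means were below the reference level no fold is given. Eomes averaged 4.53 ± 0.15 in MG and 4.78 ± 0.13 in PBS, a difference of -0.25 (standard error 0.13, unadjusted p = 0.0904 in limma), also below the level. Of the members above the level, Stmn3 and Mapt came next, with log2 differences of 0.23 and 0.25 and unadjusted p of 0.109 and 0.114 in limma. With 1 array left out, that of Stmn3 ran from 0.18 to 0.33 and that of Mapt from 0.15 (without MG replicate 1) to 0.33.

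Dcx had the largest difference of the members, 5.51 ± 0.86 in MG against 5.08 ± 0.50 in PBS cultures (SD, n = 3 each). MG minus PBS was thus 0.44 on the log2 scale (standard error 0.42, 95% confidence interval from -0.53 to 1.41). The difference rested on single arrays, at 0.024 without MG replicate 1 (unadjusted p = 0.949 in limma), 0.17 without PBS replicate 3, 0.67 without PBS replicate 2 and 0.89 without MG replicate 3 (unadjusted p = 0.0270 in limma). Without both arrays numbered 3 it was 0.62 (unadjusted p = 0.0581 in limma). Robo2 averaged 8.30 ± 0.27 in MG and 7.96 ± 0.31 in PBS, a difference of 0.34 (standard error 0.20, unadjusted p = 0.127 in limma). It was 0.17 without PBS replicate 3, 0.20 without MG replicate 1 and at most 0.47 with another array left out. Gad2 averaged 6.22 ± 1.08 in MG and 6.16 ± 0.62 in PBS, a difference of 0.06 (standard error 0.52) that was -0.55 without MG replicate 3 and 0.46 without MG replicate 1. Snap25 averaged 8.70 ± 0.21 in MG and 8.50 ± 0.50 in PBS, a difference of 0.20 (standard error 0.25) that was 0.010 without PBS replicate 2 (unadjusted p = 0.968 in limma) and 0.49 without PBS replicate 3 (unadjusted p = 0.0223 in limma). With 1 other array left out it lay between 0.11 (PBS replicate 1) and 0.32 (MG replicate 1).

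**Figure D4:**
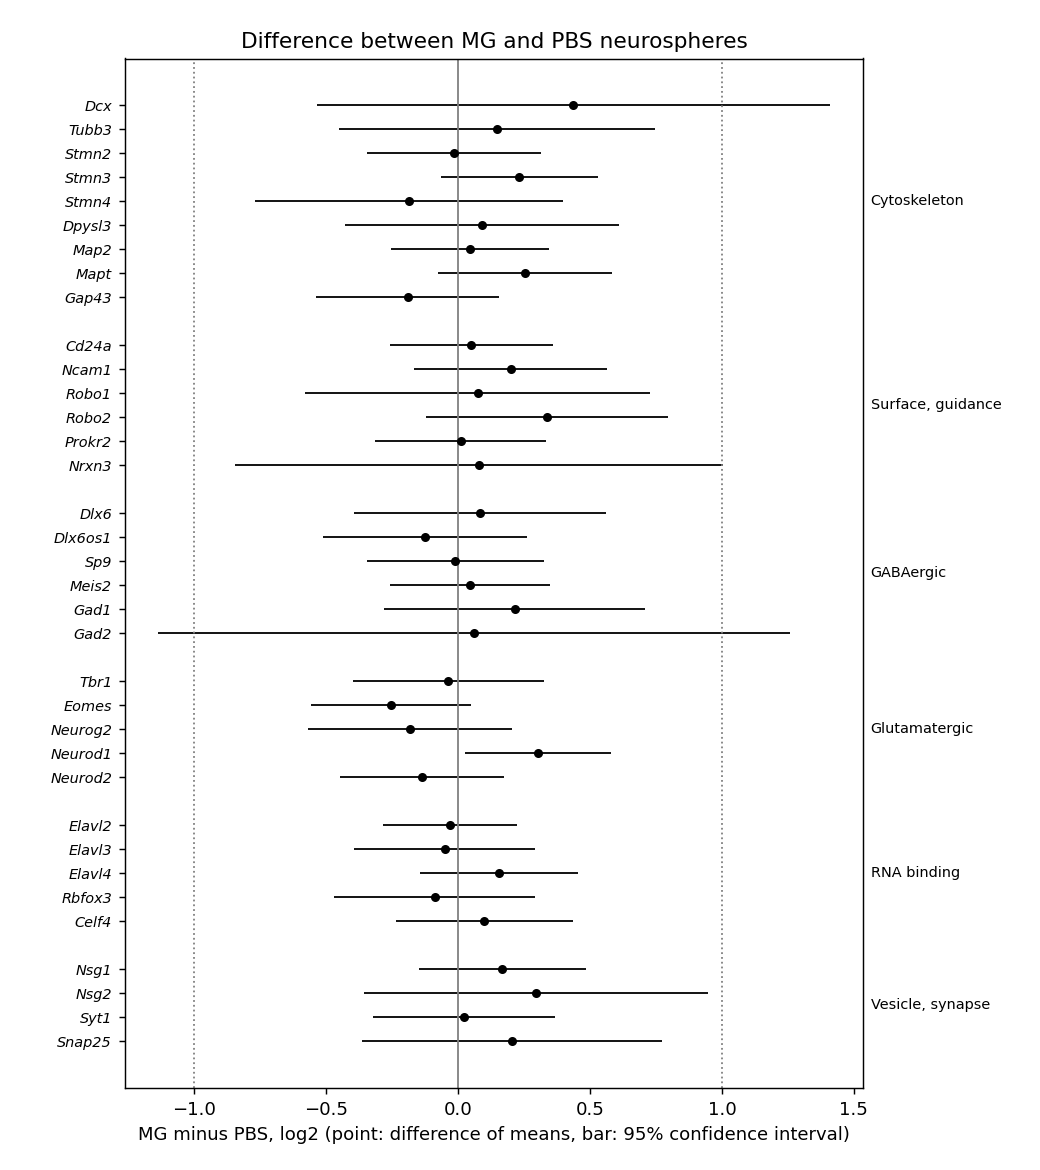
Log2 difference of MG minus PBS (x axis) for the 35 genes, with 95% confidence intervals from limma on 3 arrays a group, and dotted lines at a 2-fold difference. Only the interval of Neurod1 lies wholly on one side of 0, before adjustment, and those of Dcx, Nrxn3 and Gad2 reach past a 2-fold difference.

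The precision differed between members. For 32 of the 35 the confidence interval lay within a 2-fold difference either way (97.3% of all genes), and for 23 within a 1.5-fold difference (74.4% of all genes). The 3 exceptions to the 2-fold bound were Dcx, Gad2 and Nrxn3. The median half-width of the interval was 0.35 on the log2 scale, and the number of arrays limits it. An exact permutation test of 3 cultures against 3 cannot give a two-sided p below 0.1.

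By role, the mean was higher in MG for 6 of 9 cytoskeletal, 6 of 6 surface and guidance and 4 of 6 GABAergic genes. It was higher for 1 of 5 glutamatergic, 2 of 5 RNA-binding and 4 of 4 vesicle and synapse genes. Over all genes the share was 53.8%, and 10 of 10 astrocyte and 8 of 15 neural stem markers had the higher mean in MG. The surface differences ran from 0.0098 (Prokr2, below the level) to 0.34 (Robo2). The median log2 difference was 0.09 for the cytoskeletal, 0.08 for the surface, 0.05 for the GABAergic, -0.14 for the glutamatergic, -0.03 for the RNA-binding and 0.19 for the vesicle group. These are descriptions, and no member of any of these groups passed the adjusted test. Nsg2, with a difference of 0.29 (standard error 0.28), held the largest difference of the vesicle group and was at -0.013 without PBS replicate 3 and 0.60 without PBS replicate 2. The members with several probe sets were Cd24a, Dpysl3 and Stmn4, and their other probe set gave differences of 0.15, 0.04 and -0.06, of the same sign as those used (0.05, 0.09 and -0.19).

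Other genes of these lineages were listed by name. Of 26 further genes listed as GABAergic and neuroblast, 23 were above the level in both groups, as were 61.8% of all genes. That list was not limited to neuroblast genes, and Pax6 on it was also counted as a neural stem marker. Dlx2 (7.66 in MG, 7.52 in PBS) was among the 23. Dlx5 (3.79 in MG, 3.92 in PBS), Sp8 (4.26 in MG, 4.26 in PBS) and Calb2 (4.40 in MG, 4.14 in PBS) were below the level. Of 13 further genes listed as glutamatergic, 4 were above it in both groups, namely Bcl11b, Emx2, Prox1 and Lhx2. Below it in both were 8, including Neurog1, Neurod4, Neurod6 and the vesicular glutamate transporters Slc17a6 and Slc17a7. Of 40 further genes listed as neuronal, 36 were above it, including those of the synaptic vesicle proteins synapsin (Syn1) and synaptophysin (Syp). Elavl1 (10.61 in MG, 10.64 in PBS) and Stmn1 (7.49 in MG, 7.38 in PBS) were also among the 36, and the list was not limited to genes found only in neurons. Higher means in MG were found in 14, 10 and 25 genes of these 3 lists, and 0 of their genes passed the adjusted test in limma. At an unadjusted p under 0.05 there were 0, 1 and 2. These were Neurog1 (4.41 in MG, 4.84 in PBS), Robo3 (4.22 in MG, 4.67 in PBS) and the Prokr2 ligand gene Prok2 (4.96 in MG, 4.53 in PBS), all below the level in both groups.

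Markers of other cell types bear on what a value above the level can show. All 15 neural stem, 10 astrocyte and 10 oligodendrocyte markers tested were above it in both groups. So were 4 of 6 ependymal, 4 of 6 endothelial and 2 of 7 microglial markers, with Cx3cr1 at 5.84 in MG and 5.94 in PBS, although Aif1, Itgam and Ptprc were below it on all 6 arrays. The endothelial Pecam1 (5.03 in MG, 5.13 in PBS) and Cdh5 (5.03 in MG, 5.05 in PBS) were at the edge of the level. They were above it on 3 and 4 of 6 arrays. The mean log2 value of the microglial list ran from 4.68 to 4.72 in MG and from 4.69 to 4.79 in PBS cultures. A gene above the level was not taken as proof that its cell type was present.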

How the data were processed

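Per the labels, total RNA of 6 cultures was hybridised to Affymetrix Mouse Gene 2.0 ST arrays. The log2 values are those deposited by the authors, and the scale was inferred from their range of 0.73 to 13.81. The software was Partek 6.6, per the submitters' processing notes. Its normalisation was not given in the sources used here. Array medians lay between 5.25 and 5.42 over 41345 probe sets. No 2 arrays were identical, since a pair shared at most 30 of the gene values. Of the probe sets, 23521 paired with 1 gene in the platform annotation, 1814 with several and 16010 were unnamed here. Where a gene had more than 1 (1082 genes), the brightest on average over the 6 arrays stood for it.

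MG was compared with PBS over 22180 genes by the two-sided moderated test of limma 3.58.1 (R 4.3.3), without covariates and with Benjamini-Hochberg adjustment. Only the limma fit was tested on simulated data. Noise there was independent between genes and arrays, so it held no spread shared by genes, such as that of the arrays numbered 3. Figures were drawn with matplotlib 3.10.9. The members, lists and reference level were chosen with earlier results of these data known. Values on every array are given for members above the reference level in both groups, and for those with an unadjusted p under 0.05 or no overlap. Of 163 genes on the comparison lists, 152 were tested and the rest were not analysed here. Alternatives were a filter on dim genes, other probe set choices, other normalisations and variance models, weighted arrays, a block for the replicate number and arrays left out. Promoters come from RefSeq (GRCm38.p6).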

Additional observations from a re-analysis of the deposited data

How the results depend on the processing

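In none of the 16 alternative fits did a gene or a member pass the adjusted threshold in limma. The count of members with an unadjusted p under 0.05, 1 in the fit reported, was 0 without dim genes (Neurod1 is left out there), 2 with the replicate number as a block (Neurod1 and Robo2), and 0 to 3 with 1 array left out. The labels do not say whether the numbers pair the cultures, and correlations among 3 arrays a group cannot settle it. The deviations of same-numbered arrays correlated at 0.22, 0.04 and 0.45, the last being the highest of any MG and PBS pair. MG replicates 1 and 2 correlated better with another PBS number. The median log2 difference of the members was lowest without PBS replicate 3, at -0.01, and highest at 0.10, without MG replicate 3, the count above the reference level was 27 or 28 with 1 array left out, and 29 with the 90th percentile of the receptor genes. Of 553 values of single members under the alternatives, 505 kept their sign and 48, of 20 members, did not. The differences that turned sign were small or had a wide interval. With quantile normalisation these were Stmn2 (0.017), Sp9 (0.013), Gad2 (-0.0088) and Tbr1 (0.0081). With array weights they were Cd24a (-0.020), Prokr2 (-0.061) and Gad2 (-0.081). Without both arrays numbered 3 they were Stmn4 (0.061), Cd24a (-0.017), Prokr2 (-0.14), Gad2 (-0.22), Elavl3 (0.018), Rbfox3 (0.013) and Syt1 (-0.00029). With 1 array left out in turn, the difference ran from -0.12 to 0.36 for Tubb3, -0.093 to 0.33 for Dpysl3, -0.22 to 0.53 for Nrxn3, -0.057 to 0.29 for Dlx6, -0.12 to 0.11 for Sp9, -0.16 to 0.097 for Tbr1, -0.019 to 0.22 for Celf4, -0.13 to 0.061 for Stmn2, -0.059 to 0.13 for Map2 and -0.21 to 0.29 for Robo1. It ran from -0.0015 to 0.33 for Gad1, -0.11 to 0.12 for Syt1, -0.38 to 0.13 for Stmn4, -0.043 to 0.16 for Cd24a, -0.12 to 0.098 for Prokr2, -0.020 to 0.14 for Meis2, -0.55 to 0.46 for Gad2, -0.12 to 0.083 for Elavl3, -0.26 to 0.029 for Rbfox3 and -0.013 to 0.60 for Nsg2. The cause of these turns was not tested. Signal over background is not in the deposited values, so the reference level stands in for it.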
